A study of Mus musculus with 12 samples.

Results

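Loss of the epidermal growth factor receptor gene Egfr from the brain was compared with control in the rostral piece of the mouse cortex. The comparison uses 6 of the 12 libraries of the series, taken by their genotype and region labels: cKO T3, T6 and T80 against control T4, T8 and T70, with every gene of the deposited table. All pups were at postnatal day 5, and each library comes from 1 pup, with the T number naming the pup. The cKO pups were Nestin-EgfrF/F, that is, homozygous for a floxed Egfr allele with a Nestin-driven Cre recombinase, and the controls were EgfrF/+, which 1 label field also calls WT. The labels do not say whether the controls carried Cre, so loss of Egfr and presence of Cre cannot be told apart. The cortex and hippocampal formation had been separated from the ventral forebrain and cut into a rostral and a caudal piece before RNA extraction and mRNA sequencing. The table lists 55357 genes, of which 39202 had a count in a rostral library and 20599 had enough counts to be tested. Total counts ran from 54680589 in control T4 to 87170063 in cKO T6. By Xist and Y-linked transcripts, 1 of the 3 control pups and 2 of the 3 cKO pups were male.

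EGFR is a receptor tyrosine kinase of the ErbB family. Ligands such as TGF-alpha and HB-EGF bind it and activate the RAS-ERK and PI3K pathways. In the early postnatal forebrain it is known for its part in the proliferation and maturation of glial progenitors, from which astrocytes and oligodendrocytes arise. Nestin-driven Cre acts in neural progenitors and is inherited by neurons, astrocytes and oligodendrocytes, while microglia, blood vessels and meninges have other origins and keep the gene.

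The 6 libraries carried the markers of cortex, with Neurod6 at 251 to 619 CPM (counts scaled to a common library size) and Tbr1 at 117 to 283 CPM, but they were not uniform. The cKO library of T6 lay farthest from the others of its group, with a median absolute log2 deviation of 0.317, against 0.184 for T3, 0.193 for T80 and 0.0918 to 0.116 for the controls. In T6, 8.18% of counts came from mitochondrially encoded genes, against 2.62% to 3.92% in the other 5 libraries. The summed astrocyte list was 1472 CPM in T6 and 3046 to 4119 CPM elsewhere, and the summed meningeal list was 51.1 CPM in T6, 1217 CPM in T3 and 1467 CPM in T80, against 270 to 622 CPM in the controls. The cKO library of T3 held markers of choroid plexus and hippocampus: Ttr, the choroid plexus transthyretin, was at 360 CPM in T3 and between 0.0481 and 0.399 CPM in the other 5, and Fibcd1, a marker of hippocampal field CA1, was at 27.4 CPM against 2.53 to 5.81 CPM. Results are therefore given with all 6 libraries and, where it matters, without T6 or T3. The part of these library differences in the results was not tested.

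**Figure D1:**
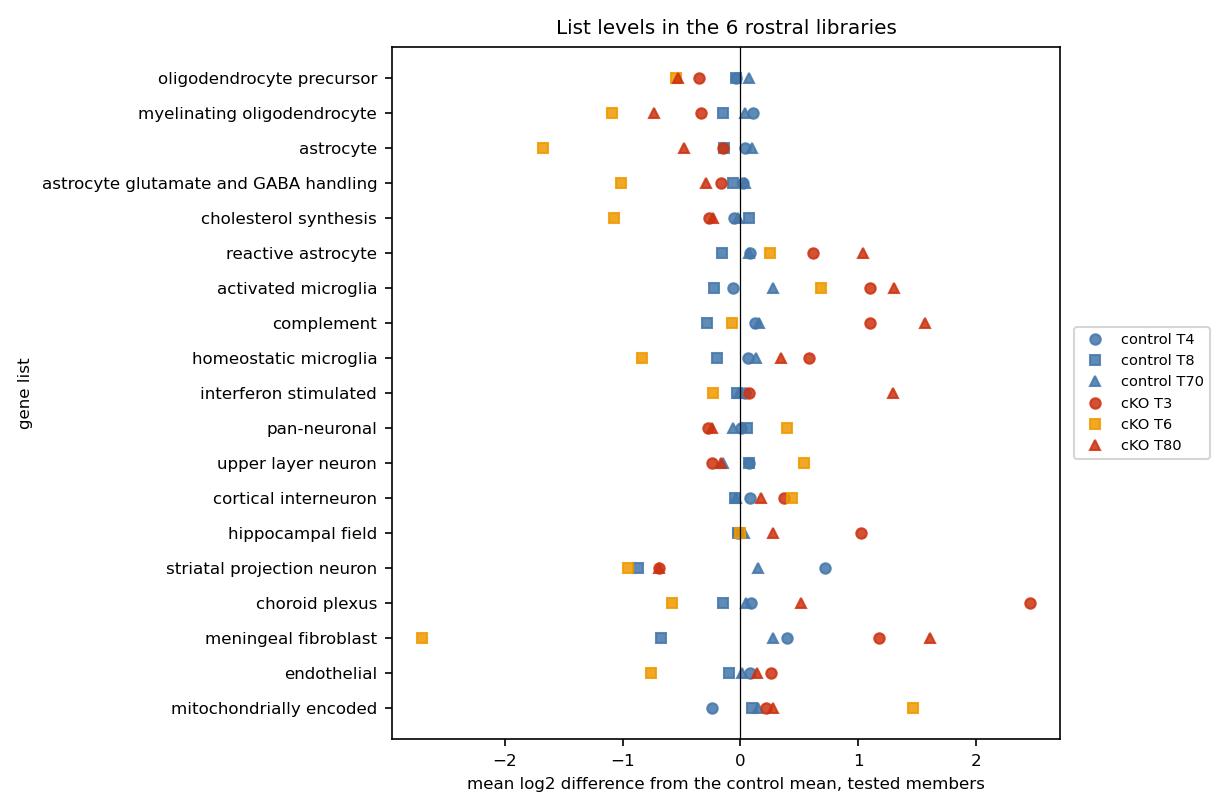
Level of 19 gene lists in the 6 rostral libraries, as the mean log2 difference of the tested members from the mean of the 3 controls (x axis, log2; 1 point per library). The point of cKO T6 lies at -1.68 for astrocyte genes, -2.70 for meningeal genes and 1.46 for mitochondrially encoded genes, and cKO T3 lies at 2.46 for choroid plexus genes, while all 3 cKO points lie below all 3 controls for oligodendrocyte precursor genes and above them for activated microglia genes.

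Egfr itself (chromosome 11, 16702203 to 16868158, plus strand, build GRCm39) was at 41.8, 39.7 and 48.9 CPM in the controls T4, T8 and T70 and at 10.3, 6.37 and 12.6 CPM in the cKO libraries T3, T6 and T80. The 2 groups were well separated, and the cKO mean was 22.5% of the control mean. The log2 fold change, cKO over control, was -2.15 (SE 0.25, n = 3 against 3), with an adjusted p of 0.186 in edgeR's quasi-likelihood test, of 7.02e-13 in DESeq2 and of 0.0027 in edgeR without T6. The remaining transcript was not resolved by cell type or by exon, so reads from unrecombined cells and from a transcript lacking the floxed part cannot be told apart.

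Among the other ErbB receptors, Erbb4, a neuregulin receptor of interneurons, was at 76.7, 75.2 and 83.6 CPM in the controls and at 109, 102 and 117 CPM in the cKO libraries. All 3 cKO values lay above all controls, with a log2 fold change of 0.49 (SE 0.09) and a DESeq2 adjusted p of 0.00671. Erbb2 and Erbb3, the other receptors of the family, had log2 fold changes of -0.02 (SE 0.33) and 0.04 (SE 0.27), within their error. Of the 8 EGF family ligands tested, 2 lay higher and 6 lower. Tgfa, which encodes the EGFR ligand TGF-alpha, was at 83.9, 36.9 and 67.8 CPM in the controls and at 35.9, 21.8 and 31.6 CPM in the cKO libraries. Its control values spread widely, and the log2 fold change of -1.07 (SE 0.32) had an adjusted p of 0.0409 in DESeq2 and of 0.302 in edgeR without T6. Hbegf was at 18.2, 18.8 and 18.7 CPM in the controls and at 15.2, 14.5 and 14.2 CPM in the cKO libraries, a log2 fold change of -0.34 (SE 0.09) that DESeq2 did not call at an adjusted p of 0.0901.

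Genes that respond to ERK signalling were not uniformly lower. Of 16 tested genes of ERK feedback and ETS targets, 9 lay higher and 7 lower, and the median log2 fold change was 0.07, beside 0.04 for all genes tested. Dusp4, a phosphatase that inactivates ERK, was at 9.50, 8.93 and 9.27 CPM in the controls and at 30.2, 14.4 and 21.7 CPM in the cKO libraries. It thus lay above the controls in each cKO library, with a log2 fold change of 1.27 (SE 0.26) and a DESeq2 adjusted p of 6.91e-04. Phlda1 had a log2 fold change of 0.60 (SE 0.12) and a DESeq2 adjusted p of 0.00813. Dusp6 and Spry2, which are commonly read as ERK outputs, had log2 fold changes of 0.03 (SE 0.11) and -0.14 (SE 0.13).

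Over the whole table no gene passed an adjusted p of 0.05 in edgeR's quasi-likelihood test (0% of 20599 genes, lowest adjusted p 0.186). At an unadjusted p below 0.05 the same fit had 1955 genes, 5.51% of all tested as higher and 3.98% as lower in cKO. Groups that did not overlap were found for 8.98% of genes as higher and 10.8% as lower. DESeq2 called 371 genes on the same 6 libraries, 209 higher (0.963%) and 162 lower (0.747%), and limma voom with library quality weights called 920, while limma voom without weights called 0. When T6 was left out, edgeR called 1058 genes, 693 higher (3.28%) and 365 lower (1.73%). Of these, 266 were also called by DESeq2 with all 6 libraries, which is 71.7% of the DESeq2 calls and 25.1% of the calls without T6. In what follows a gene is said to be called only with the name of the test that called it, and these shares are the background for each list.

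The 12 lower and the 12 higher genes with the smallest p, among those at a mean of 1 CPM or more whose groups did not overlap, were all called by DESeq2 and all called by edgeR without T6. Both fits used libraries from which these genes had been chosen, so the calls are not independent support. On the lower side the first was Kcnj10, the glial inward rectifier potassium channel Kir4.1 (chromosome 1, 172168777 to 172201652), at 112, 111 and 109 CPM in the controls and 56.9, 43.5 and 45.0 CPM in the cKO libraries. The controls lay within a narrow band and every cKO value lay far under it, with a cKO mean of 43.8% of control and a log2 fold change of -1.18 (SE 0.12, DESeq2 adjusted p 8.01e-12). Fgfbp3, a secreted binding protein that carries fibroblast growth factors (chromosome 19, 36894950 to 36897015), was at 26.6, 23.8 and 26.1 CPM in the controls and 11.5, 9.48 and 8.13 CPM in the cKO libraries, 38.1% of control on average. Wdfy1, an endosomal WD-repeat and FYVE-domain protein, was at 81.6, 85.3 and 85.8 CPM in the controls and 48.2, 49.6 and 52.3 CPM in the cKO libraries. For Wdfy1 the 3 cKO libraries agreed within a few CPM, T6 included.

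The other lower genes of this group have varied roles. Olig1 and Olig2, transcription factors of the oligodendrocyte lineage, and Pllp, the myelin protein plasmolipin, are described with their lists. Efhd1, a calcium-binding mitochondrial protein, was at 5.24, 5.46 and 4.41 CPM in the controls and 1.54, 1.25 and 1.93 CPM in the cKO libraries. Emid1, a secreted EMI-domain protein, was at 30.0, 28.7 and 25.5 CPM against 14.5, 13.5 and 16.6 CPM. Both genes thus had cKO values far below the lowest control. Ampd3, an AMP deaminase, Frmpd1, a scaffold protein, and Ngef, the guanine nucleotide exchange factor ephexin that acts downstream of EphA receptors, had log2 fold changes of -0.86, -0.88 and -0.76, each with an SE between 0.12 and 0.13. Pdzph1, among the 10 largest lower folds of DESeq2 calls with groups apart, was at 2.39, 1.84 and 2.98 CPM against 0.702, 0.233 and 0.798 CPM.

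On the higher side the smallest p belonged to Serpina3n, a serine protease inhibitor known from reactive astrocytes (chromosome 12, 104372988 to 104380588), at 1.54, 1.32 and 2.07 CPM in the controls and 6.35, 5.47 and 5.51 CPM in the cKO libraries. All 3 cKO values were above the highest control by a wide margin, and the cKO mean was 3.52-fold the control mean (log2 fold change 1.82, SE 0.21, DESeq2 adjusted p 8.01e-12). Galnt6, an enzyme that starts mucin-type O-glycosylation, was at 0.220, 0.382 and 0.240 CPM in the controls and 1.54, 1.63 and 2.41 CPM in the cKO libraries, 6.62-fold. Meg3, an imprinted long noncoding RNA, was at 177, 207 and 225 CPM in the controls and 418, 312 and 412 CPM in the cKO libraries. Msn, which encodes the membrane-cytoskeleton linker moesin, had tight groups, at 49.0, 48.1 and 51.7 CPM against 68.7, 71.8 and 69.5 CPM (log2 fold change 0.50, SE 0.08). Tenm4, a teneurin adhesion protein of neurons, and Crhbp, the binding protein of corticotropin-releasing hormone, had log2 fold changes of 0.67 (SE 0.10) and 1.31 (SE 0.22).

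A further set of the higher genes was also at a high level in the caudal controls, whose values are given here because the position of the cut between the pieces can bear on them. Neurod1, a transcription factor of differentiating neurons and of dentate granule cells, was at 12.6, 13.9 and 15.9 CPM in the rostral controls, 31.9, 27.3 and 36.6 CPM in the rostral cKO libraries and 33.4, 44.1 and 43.1 CPM in the caudal controls. Cr2, complement receptor 2, was at 0.845, 0.719 and 0.737 CPM in the rostral controls, 4.36, 2.85 and 6.17 CPM in the rostral cKO libraries and 5.67, 5.23 and 3.98 CPM in the caudal controls. Dgkg, a diacylglycerol kinase, was at 10.8, 9.67 and 10.8 CPM, then 30.4, 27.7 and 20.0 CPM, then 32.0, 32.4 and 26.9 CPM in the same 3 groups. For these 3 genes every rostral cKO library lay above the rostral controls, and in T80 Cr2 was above the caudal controls too. Dsc3, a desmosomal cadherin, had the largest fold among higher genes called by DESeq2 with groups apart and a mean of 1 CPM or more. It was at 0.441, 0.352 and 0.593 CPM in the rostral controls, 11.1, 0.795 and 11.8 CPM in the rostral cKO libraries and 11.6 to 17.9 CPM in the caudal controls. T6 was thus close to the rostral controls and the other 2 were not. Rspo3, a secreted activator of Wnt signalling, was at 4.78, 4.86 and 5.35 CPM against 9.29, 7.23 and 11.03 CPM, with caudal controls at 9.08 to 9.95 CPM. Whether the cut was placed alike in the 2 genotypes was not tested.

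**Figure D2:**
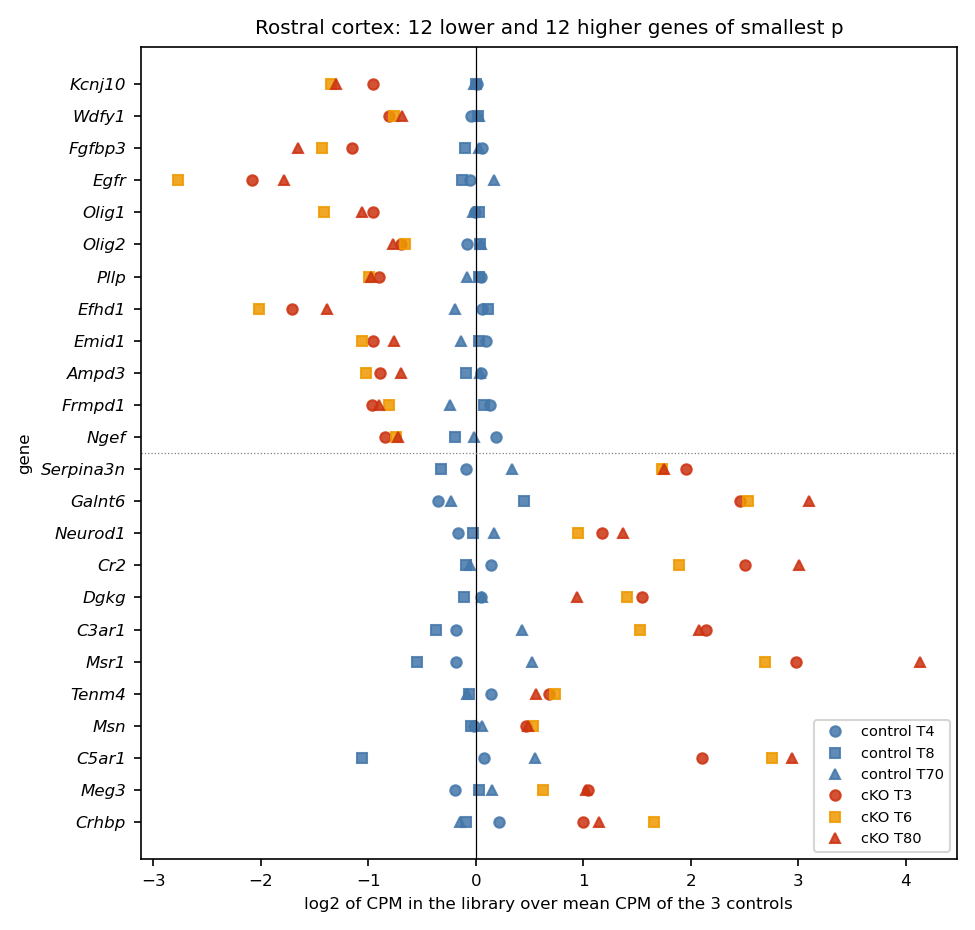
Level of the 12 lower and 12 higher genes of smallest p in each rostral library, as log2 of its CPM over the mean CPM of the 3 controls (x axis, log2; 1 point per library, controls in blue). For each gene the 3 cKO points lie on 1 side of the 3 control points, which the choice of the genes required; T6 lies at the far end for Egfr, at 6.37 CPM, and at the near end for Cr2, at 2.85 CPM.

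Genes of the oligodendrocyte lineage lay lower in the cKO libraries at the precursor and the myelinating stage. In bulk tissue fewer cells of a type and less RNA per cell cannot be told apart. Of 15 tested precursor genes, 13 lay lower and 2 higher. Of these, 8 lower and 1 higher were at an unadjusted p below 0.05, 6 were called lower by DESeq2 and none higher, and the median log2 fold change was -0.48, beside 0.04 for all genes tested. Without T6 the median was -0.57 and without T3 it was -0.61. The precursor list level was -0.35, -0.55 and -0.53 in the rostral cKO libraries T3, T6 and T80. In the caudal controls T4, T8 and T70 it was -0.29, -0.34 and -0.28, also below the rostral controls. For the myelinating list the levels were -0.34, -1.09 and -0.73 in the rostral cKO libraries and -0.17, -0.16 and -0.19 in the caudal controls. The part of the cut position in these levels was not tested.

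Olig1 (chromosome 16, 91066660 to 91068821) was at 117, 120.0 and 116 CPM in the controls and 60.6, 44.2 and 56.5 CPM in the cKO libraries. Its neighbour Olig2 (91022345 to 91025565), the factor that specifies the lineage, was at 34.7, 37.8 and 38.0 CPM in the controls and 22.8, 23.3 and 21.5 CPM in the cKO libraries. The controls and the cKO libraries of both genes formed tight and separate groups, at 45.8% of control for Olig1 (log2 fold change -1.12, SE 0.13) and 61.2% for Olig2 (-0.70, SE 0.09). Gpr17, a receptor of precursors committed to differentiation, was at 96.1, 94.6 and 120 CPM in the controls and 79.4, 48.3 and 55.3 CPM in the cKO libraries, and Nkx2-2, a transcription factor of the same stage, at 5.25, 5.60 and 6.28 CPM against 4.08, 3.44 and 2.59 CPM. Both were called by DESeq2 (adjusted p 0.0401 for each) and neither by edgeR without T6. Susd5 and the proteoglycan gene Cspg5 were called lower by DESeq2 and by edgeR without T6, with log2 fold changes of -1.09 (SE 0.19) and -0.39 (SE 0.09).

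The defining precursor markers had smaller differences than Olig1 and Olig2, although this contrast between genes was not tested. Pdgfra, the receptor for platelet-derived growth factor that marks precursors, was at 192, 183 and 211 CPM in the controls and 194, 124 and 167 CPM in the cKO libraries, so the groups overlapped (log2 fold change -0.26, SE 0.17). Cspg4, the proteoglycan NG2, had a log2 fold change of 0.01 (SE 0.16). Sox10, expressed through the whole lineage, was at 21.7, 22.6 and 21.6 CPM in the controls and 18.7, 14.8 and 13.96 CPM in the cKO libraries, without overlap (-0.46, SE 0.13) and without a call in DESeq2 (adjusted p 0.117).

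Of 12 tested genes of myelinating oligodendrocytes, 9 lay lower, 8 of them at an unadjusted p below 0.05, 5 were called lower by DESeq2 and none was called higher. Their median log2 fold change was -0.71 with all libraries and -0.82 without T6. Mbp, myelin basic protein, was at 72.1, 71.6 and 69.5 CPM in the controls and 57.6, 44.7 and 43.0 CPM in the cKO libraries. Fa2h and Ugt8a, enzymes of myelin galactolipid synthesis, had log2 fold changes of -1.34 (SE 0.28) and -0.85 (SE 0.19), and Mag, myelin-associated glycoprotein, of -1.32 (SE 0.34), all 3 called by DESeq2. Of the 5 DESeq2 calls of the list, edgeR without T6 kept 1, Fa2h (adjusted p 0.0387), while Ugt8a, Mag and Mbp were at 0.0521 to 0.0699. Mog, a marker of mature myelin, had at most 20 counts in any rostral library and was not tested. Pllp, the plasmolipin gene named above (chromosome 8, 95401522 to 95422906), was at 10.6, 10.5 and 9.71 CPM in the controls and 5.52, 5.15 and 5.25 CPM in the cKO libraries, 51.6% of control.

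Between these stages, the 12 tested genes of newly formed oligodendrocytes centred on -0.05 (median log2 fold change), with 5 higher and 7 lower. The list was split: Enpp6, a choline phosphodiesterase that marks newly formed cells, was at 6.06, 5.98 and 8.38 CPM in the controls and 3.09, 1.86 and 0.890 CPM in the cKO libraries, and Bcas1, of early myelinating cells, at 32.4, 33.2 and 42.8 CPM against 22.2, 18.0 and 10.1 CPM. DESeq2 called both (adjusted p 0.00167 and 0.0129) and no other member of the list, and edgeR without T6 called neither (adjusted p 0.152 and 0.189). In that fit without T6, 1 other member of the list was called, as higher.

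**Figure D3:**
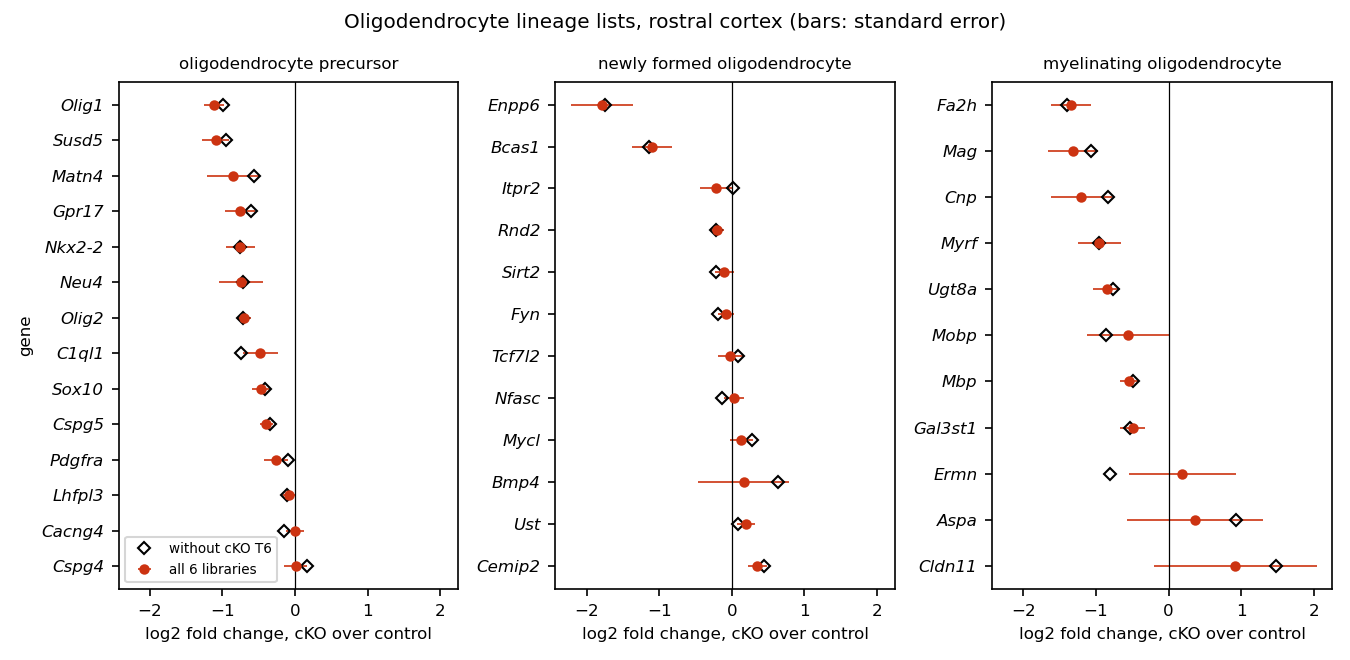
Log2 fold change, cKO over control, of the reported members of the 3 oligodendrocyte lists (x axis, log2; red points with bars of 1 standard error for all 6 libraries, open diamonds for the fit without cKO T6). Olig1 lies at -1.12, Enpp6 at -1.79 and Fa2h at -1.34, and most diamonds lie near their points; Ermn moves from 0.19 to -0.81 when T6 is left out.

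Most astrocyte genes lay lower, with T6 by far the lowest library. Of 25 tested, 23 lay lower, 9 of them at an unadjusted p below 0.05, and 4 were called lower by DESeq2 and none higher. The median log2 fold change was -0.53 with all libraries, -0.36 without T6 and -0.85 without T3, and T3, T6 and T80 stood at list levels of -0.14, -1.68 and -0.48. The 4 called genes were Kcnj10, Gpr37l1, Slc7a10 and Aldh1l1, and all 4 were also called by edgeR without T6.

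Gpr37l1, a receptor of astrocytes, was at 45.1, 41.5 and 40.7 CPM in the controls and 18.8, 6.18 and 15.5 CPM in the cKO libraries. Slc7a10, a transporter of small neutral amino acids including D-serine, was at 18.4, 17.4 and 19.1 CPM against 7.74, 2.16 and 6.41 CPM. Aldh1l1, the folate enzyme that serves as a general astrocyte marker, was at 95.9, 90.7 and 99.8 CPM against 58.7, 23.5 and 46.4 CPM. In each of the 3 genes T6 was the lowest library and T3 and T80 were still well under every control. Aqp4, the water channel of astrocyte endfeet, was at 247, 212 and 242 CPM in the controls and 166, 48.9 and 129 CPM in the cKO libraries (log2 fold change -1.02, SE 0.40, DESeq2 adjusted p 0.155, edgeR without T6 adjusted p 0.0369). Other general astrocyte genes did not follow: Slc1a3, the glutamate transporter GLAST, was at 575, 571 and 645 CPM in the controls and 691, 285 and 450 CPM in the cKO libraries, and Gja1, connexin 43, at 140, 118 and 160 CPM against 161, 29.1 and 215 CPM. For both, T3 lay above every control and T6 far below. Slc14a1, a urea transporter of astrocytes, had a log2 fold change of -1.88 (SE 0.45) and was called by DESeq2 and by edgeR without T3.

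Genes that handle glutamate and GABA in astrocytes, a list that shares members with the astrocyte list, were lower in 14 of 15 tested, with 6 at an unadjusted p below 0.05, 4 DESeq2 calls and a median log2 fold change of -0.37. Slc6a11, the GABA transporter GAT-3, was at 301, 329 and 304 CPM in the controls and 205, 149 and 197 CPM in the cKO libraries (-0.75, SE 0.14, DESeq2 adjusted p 8.39e-04). Aldh5a1 and Abat, the enzymes that break down GABA, had log2 fold changes of -0.37 (SE 0.09) and -0.69 (SE 0.19), both called by DESeq2. Glul, glutamine synthetase, was at 559, 557 and 536 CPM in the controls and 512, 305 and 394 CPM in the cKO libraries, without overlap and without a call (DESeq2 adjusted p 0.368).

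Against this lower level of astrocyte genes, genes of reactive astrocytes lay higher. Of 20 tested, 18 lay higher, 11 of them at an unadjusted p below 0.05, with 7 DESeq2 calls higher and none lower. The median log2 fold change was 0.88, and 1.03 without T6. The list levels were 0.62, 0.25 and 1.05 in the rostral cKO libraries T3, T6 and T80. In the caudal controls T4, T8 and T70 they were 0.35, 0.27 and 0.34, above the rostral controls. Between the genotypes in the caudal piece the median of the list was 0.12. The part of the cut position in these levels was not tested. Besides Serpina3n, Cd109 was at 3.53, 2.95 and 3.72 CPM in the controls and 6.27, 6.25 and 9.34 CPM in the cKO libraries, and Osmr, the oncostatin M receptor, at 5.79, 6.41 and 5.38 CPM against 9.71, 9.74 and 7.92 CPM. Both were separated in all 3 libraries and called by DESeq2 and by edgeR without T6. Steap4, a metalloreductase, was at 0.0735, 0.138 and 0.208 CPM against 0.581, 0.466 and 1.35 CPM. Gfap, the filament protein most used as a reactive marker, was at 81.0, 59.1 and 79.7 CPM in the controls and 171, 42.0 and 112 CPM in the cKO libraries, with T6 below all controls and the other 2 above them (0.58, SE 0.45). Vim, the filament protein vimentin, was at 72.8, 63.5 and 73.7 CPM against 119, 81.7 and 115 CPM (0.60, SE 0.16, DESeq2 adjusted p 0.074, edgeR without T6 adjusted p 0.00686). Several members are also expressed by microglia, endothelium or meninges. All 16 tested meningeal genes lay higher, with a median log2 fold change of 0.94, or 1.51 without T6, and list levels of 1.18 in T3, -2.70 in T6 and 1.61 in T80. DESeq2 called none of them, and edgeR without T6 called 3. The endothelial list had a median of 0.01, with 8 higher and 7 lower. The part of meningeal RNA in the values of reactive astrocyte, microglial and complement genes was not tested.

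Genes of activated microglia and complement receptors also lay higher. Of 14 tested activated microglia genes, 13 lay higher, 9 at an unadjusted p below 0.05, with 7 DESeq2 calls, and the median log2 fold change was 1.58, or 1.28 without T6. The list levels were 1.10, 0.69 and 1.30 in the rostral cKO libraries T3, T6 and T80. In the caudal controls T4, T8 and T70 they were 0.28, 0.27 and 0.38. Between the genotypes in the caudal piece the median of the list was 0.64. Msr1, the macrophage scavenger receptor (chromosome 8, 40034726 to 40095714), was at 0.294, 0.229 and 0.481 CPM in the controls, that is 15 to 30 counts, and at 2.63, 2.16 and 5.86 CPM in the cKO libraries, 10.6-fold higher on average (log2 fold change 3.41, SE 0.50, DESeq2 adjusted p 1.1e-09). Cd68, a lysosomal protein of phagocytes, was at 3.88, 2.37 and 3.99 CPM against 9.24, 6.66 and 7.33 CPM. Clec7a, the beta-glucan receptor dectin-1, was at 0.533, 0.367 and 1.38 CPM against 3.50, 3.19 and 4.85 CPM. Spp1, the secreted phosphoprotein osteopontin, was at 4.45, 4.25 and 11.9 CPM against 24.2, 27.7 and 83.1 CPM. In each of these 4 genes all cKO libraries, T6 included, lay above all controls, and T80 or T3 held the highest value. Other immune-cell genes were among the 10 largest higher folds of DESeq2 calls with groups apart. Cybb, a subunit of the phagocyte NADPH oxidase, had a log2 fold change of 2.57 (SE 0.75), Igsf6 of 2.52 (SE 0.52) and Slfn2 of 2.43 (SE 0.47). Igsf6 and Slfn2 were also called by edgeR without T6 (adjusted p 0.0191 and 0.0154) but Cybb was not (0.0565).

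All 14 tested complement genes lay higher, with 6 at an unadjusted p below 0.05, 4 called by DESeq2 and a median log2 fold change of 1.13. The list levels were 1.10, -0.07 and 1.56 in the rostral cKO libraries T3, T6 and T80. In the caudal controls T4, T8 and T70 they were 0.38, 0.08 and 0.31, so T6 lay below them. Between the genotypes in the caudal piece the median was 0.41. The part of the cut position in the activated microglia and complement levels was not tested. C3ar1, the receptor for the C3a peptide, was at 1.98, 1.74 and 3.04 CPM in the controls and 9.96, 6.51 and 9.53 CPM in the cKO libraries (log2 fold change 1.95, SE 0.28). C5ar1, the receptor for C5a, was at 0.404, 0.184 and 0.561 CPM against 1.65, 2.58 and 2.93 CPM (2.65, SE 0.44). Itgam and Itgb2, the 2 chains of complement receptor 3, had log2 fold changes of 1.42 (SE 0.37) and 1.70 (SE 0.46). These 4 genes were called by DESeq2 and by edgeR without T6. The C1q chains behaved differently in T6: C1qa was at 9.26, 6.99 and 9.16 CPM in the controls and 27.6, 6.48 and 20.7 CPM in the cKO libraries, and C1qb at 8.84, 6.91 and 9.53 CPM against 22.8, 8.63 and 22.2 CPM. The 3 C1q genes were not called with all libraries (DESeq2 adjusted p 0.0881 to 0.305) and were called by edgeR without T6 (adjusted p 0.0054 to 0.0103).

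Homeostatic microglia genes were split by library, with list levels of 0.58 in T3, -0.84 in T6 and 0.35 in T80. With all libraries 8 of 14 lay higher and 6 lower, with a median log2 fold change of 0.14 and 1 DESeq2 call. That call was Itgam, already named above with the complement genes. Without T6 the median was 0.51, and edgeR called 4 higher (Itgam, Aif1, Trem2 and Cx3cr1) and none lower. Cx3cr1, the fractalkine receptor, was at 27.6, 23.3 and 28.9 CPM in the controls and 51.0, 17.0 and 46.0 CPM in the cKO libraries. P2ry12, a purinergic receptor of resting microglia, was at 15.5, 11.8 and 17.7 CPM against 13.9, 4.06 and 6.80 CPM, and Tmem119 at 3.23, 2.75 and 3.03 CPM against 4.12, 0.301 and 4.33 CPM. T6 was the lowest library for all 3 markers, while T3 and T80 lay above the controls for Cx3cr1 and Tmem119 and within or below them for P2ry12. Interferon-stimulated genes were high in 1 library: their level was 1.30 in T80, 0.08 in T3 and -0.23 in T6, and Irf7 was at 0.459, 0.367 and 0.449 CPM in the controls and 0.446, 0.247 and 3.11 CPM in the cKO libraries. Of 16 tested, 15 lay higher, but 1 was at an unadjusted p below 0.05 and DESeq2 called none.

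**Figure D4:**
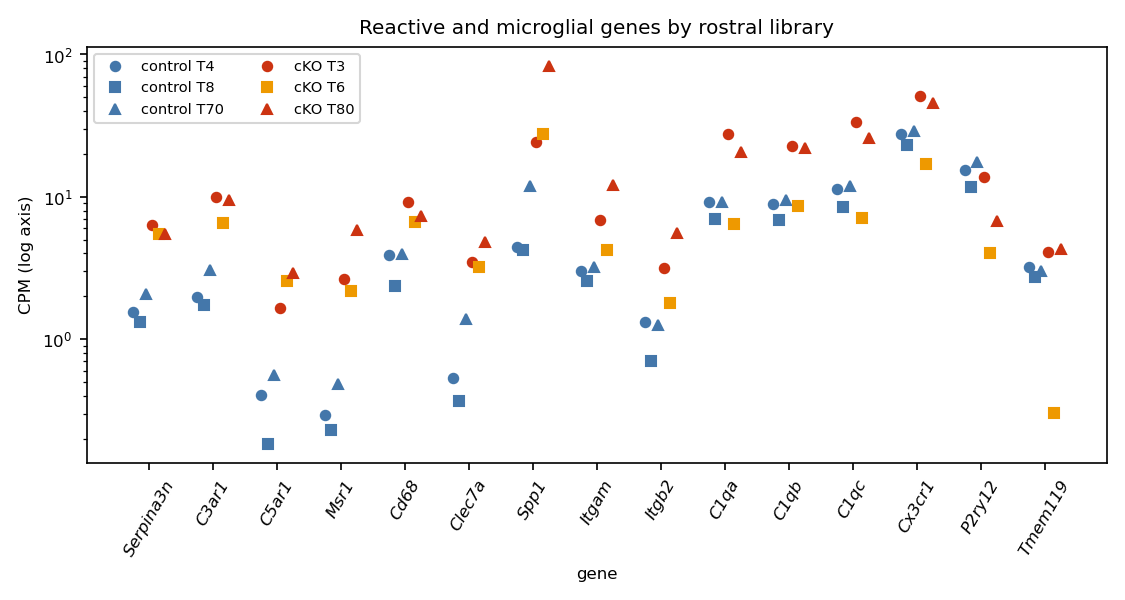
CPM of 15 reactive astrocyte, complement and microglial genes in the 6 rostral libraries (y axis, log scale; 1 point per library). From Serpina3n to Itgb2 all 3 cKO points lie above the 3 controls; for C1qa, Cx3cr1, P2ry12 and Tmem119 the T6 point, at 6.48, 17.0, 4.06 and 0.301 CPM, lies below every control.

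Pan-neuronal and upper layer lists had medians near that of all genes and changed sign without T6, while most interneuron genes lay higher. The median log2 fold change of the 12 tested pan-neuronal genes was 0.06, and -0.27 without T6, and the 14 upper layer genes 0.14 and -0.34. Of 16 cortical interneuron genes, 13 lay higher, 5 at an unadjusted p below 0.05, and DESeq2 called 1, Erbb4. Their median log2 fold change was 0.35, or 0.25 without T6, and the list levels were 0.37, 0.44 and 0.18 in T3, T6 and T80. The caudal controls T4, T8 and T70 stood at a similar level of this list, at 0.39, 0.305 and 0.29. Between the genotypes in the caudal piece the median of the list was 0.05. The part of the cut position in the interneuron values was not tested. Reln, which encodes the secreted protein reelin, was at 311, 280 and 267 CPM in the controls and 397, 320 and 402 CPM in the cKO libraries, without overlap (0.39, SE 0.12, DESeq2 adjusted p 0.215). Of 15 hippocampal genes, 12 lay higher with a median of 0.49, and of 0.21 without T3. Prox1, a factor of dentate granule cells, was at 12.99, 15.9 and 17.3 CPM in the controls and 55.2, 21.9 and 18.8 CPM in the cKO libraries, so that T3 stood alone. The choroid plexus list had a median of 1.47 with all libraries and of 0.19 without T3, and Folr1, another of its defining markers, was at 3.07 CPM in T3 and at most 0.199 CPM in the others.

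Striatal genes lay lower, in 15 of 16 tested, with 7 at an unadjusted p below 0.05, 4 DESeq2 calls and a median log2 fold change of -0.95 that was -0.95 without T6 and -0.80 without T3. The list was uneven among the controls, with levels of 0.72 in T4, -0.87 in T8 and 0.15 in T70 against -0.69, -0.95 and -0.69 in T3, T6 and T80, so control T8 lay at the level of the cKO libraries. Ppp1r1b, the dopamine-regulated phosphatase inhibitor DARPP-32, was at 82.9, 23.0 and 54.1 CPM in the controls and 12.7, 14.3 and 9.97 CPM in the cKO libraries. Drd1, the dopamine D1 receptor, was more even, at 25.2, 18.9 and 23.9 CPM against 10.1, 13.2 and 12.3 CPM (-0.93, SE 0.15, DESeq2 adjusted p 2.06e-04). Drd2 and Adora2a, markers of the other striatal output neurons, were at 9.13, 1.61 and 4.68 CPM against 1.89, 2.33 and 1.81 CPM and at 18.0, 5.78 and 11.2 CPM against 5.43, 1.77 and 4.51 CPM. Scn4b, Ankrd63 and Strip2, among the 10 largest lower folds of DESeq2 calls with groups apart, had their lowest control value in T8 as well. They were at 0.872, 2.40 and 5.14 CPM in T8, against 3.51 to 5.47, 5.86 to 10.7 and 16.7 to 23.3 CPM in T70 and T4. How much striatal tissue each piece held was not tested.

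Among signalling genes, single members stood out rather than whole lists. Of 16 Notch pathway genes, 13 lay lower with a median log2 fold change of -0.24, and Hey1, a transcription factor induced by Notch, was at 30.9, 26.2 and 30.1 CPM in the controls and 20.7, 17.6 and 19.0 CPM in the cKO libraries (-0.60, SE 0.11), the only DESeq2 call of the list (adjusted p 0.0026). Of 15 genes of FGF receptors and ligands, DESeq2 called Fgfbp3 and Fgf1. Fgf1 was at 18.9, 18.2 and 21.2 CPM against 10.2, 2.79 and 7.90 CPM. Among 20 genes of BMP and TGF-beta signalling, Tgfbr1, the type 1 TGF-beta receptor, was at 95.3, 111 and 106 CPM against 77.1, 72.9 and 73.7 CPM, and Tgfb3 went the other way, at 4.68, 4.13 and 4.98 CPM against 7.60, 6.66 and 11.8 CPM. DESeq2 called both, together with Bmpr1b (-0.65, SE 0.15). Rspo3 was the one DESeq2 call among 19 Wnt pathway genes.

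Of the metabolic lists, cholesterol synthesis lay lower and the mitochondrially encoded genes higher. All 18 tested genes of cholesterol synthesis lay lower, 16 of them without overlap between the groups and 6 at an unadjusted p below 0.05, with a median log2 fold change of -0.44, or -0.26 without T6, and 1 DESeq2 call. That gene was Hmgcs1, an early enzyme of the pathway, at 1581, 1929 and 1838 CPM in the controls and 1314, 1141 and 1321 CPM in the cKO libraries (-0.49, SE 0.12). The nuclear genes of the respiratory chain lay lower in 16 of 17 with a median of -0.12 and no DESeq2 call, while the 13 mitochondrially encoded genes lay higher with a median of 0.86, or 0.27 without T6. In the matrix list of brain proteoglycans and hyaluronan enzymes, Has3 and Cspg5 were called lower by DESeq2, and Ncan, the proteoglycan neurocan, was at 1273, 1243 and 1138 CPM in the controls and 1011, 844 and 874 CPM in the cKO libraries without a call (adjusted p 0.0591). Has2, another hyaluronan synthase, had a log2 fold change of 0.89 (SE 0.30).

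The caudal piece of the same pups gives the nearest comparison, with 3 control and 3 cKO libraries of its own. There edgeR called 17 genes (0.0821% of 20705), and 7.65% of genes lay higher and 6.86% lower at an unadjusted p below 0.05. Egfr had a caudal log2 fold change of -2.05 (SE 0.31), close to the rostral value, and the difference between the 2 was -0.10 (SE 0.41). Of the 12 lower genes of smallest rostral p, 9 were lower at an unadjusted p below 0.05 in the caudal piece and 3 were called there (Wdfy1, Fgfbp3 and Olig1), and of the 12 higher genes, 8 were higher at that level and none was called. Wdfy1 and Meg3 had almost equal values in both pieces, with caudal log2 fold changes of -0.72 (SE 0.06) and 0.85 (SE 0.18).

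The test of the difference between the pieces, an interaction of genotype and region over all 12 libraries, passed for no gene in edgeR (0% of 21599, lowest adjusted p 0.263), with 767 genes at an unadjusted p below 0.05 and 14 calls in DESeq2. With the pup as a replicate block edgeR also called 0. All differences between the pieces given here for single genes, with their SEs and p-values, are from the fit without that block. They thus leave out the pairing of the pieces within a pup. The smallest p was that of Cr2, with a difference of 2.72 (SE 0.38, unadjusted p 1.2e-05), where the caudal groups overlapped. Among the named genes, Kcnj10 had a caudal log2 fold change of -0.27 (SE 0.14) and a difference of -0.92 (SE 0.20, unadjusted p 6.67e-04), and Serpina3n a caudal value of 0.45 (SE 0.21) and a difference of 1.37 (SE 0.31, unadjusted p 9.74e-04). Olig1 had a caudal value of -0.67 (SE 0.07) and a difference of -0.45 (SE 0.15), and Erbb4 of 0.08 (SE 0.08) and 0.41 (SE 0.13). These differences were not significant after adjustment over all genes.

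**Figure D5:**
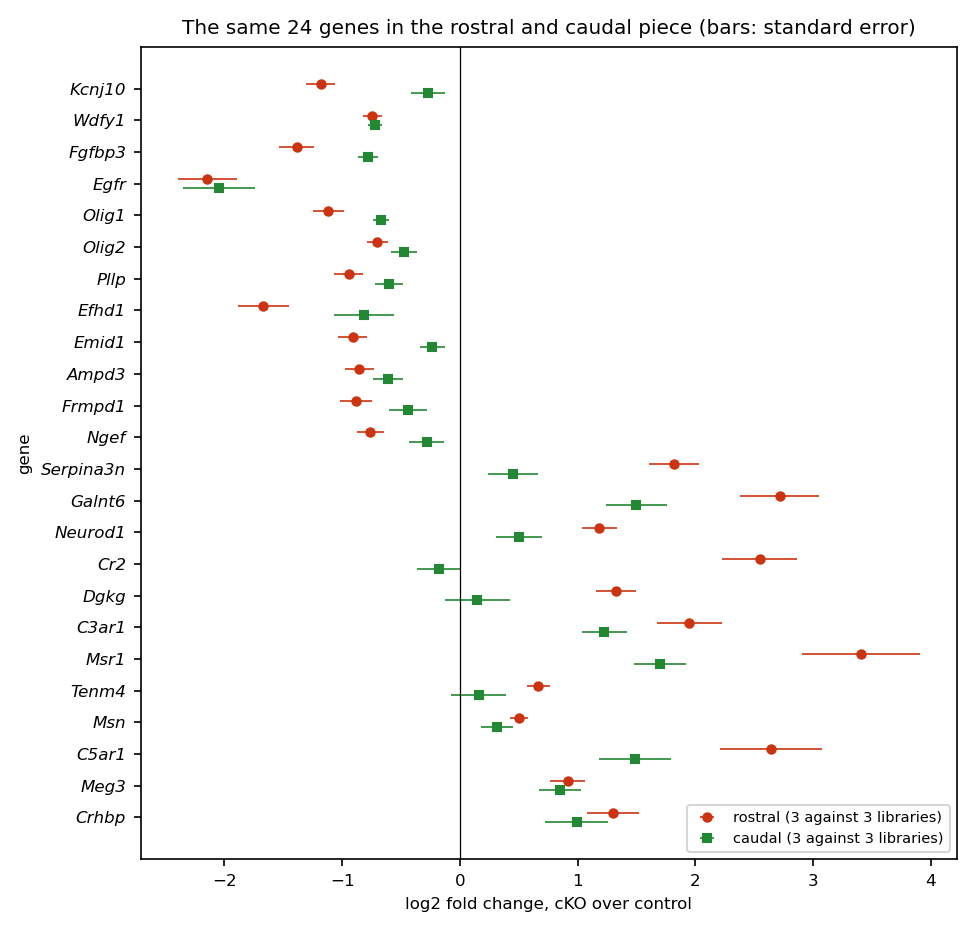
Log2 fold change, cKO over control, of the 24 named genes of smallest rostral p in the rostral piece (red circles) and in the caudal piece (green squares), with bars of 1 standard error (x axis, log2; 3 against 3 libraries in each piece). All genes but Cr2 lie on the same side of zero in both, Egfr at -2.15 and -2.05, while Cr2 lies at 2.55 and -0.18.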

How the data were processed

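RNA was measured in 12 libraries from 6 pups, and the 6 rostral libraries are compared here. Per the submitters' processing notes, STAR 2.7.8a and featureCounts 2.0.3 were used with genome build GRCm39. Strand setting, treatment of shared reads and annotation release: not given in the sources used here. Values deposited by the authors are expected counts: between 9.69% and 14.3% of each library's values were not whole, although whole counts had been planned for. They were rounded to whole numbers. Overlapping and near-identical genes may share reads.

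Genes were kept with filterByExpr, scaled by TMM and tested with edgeR 4.0.16 (robust quasi-likelihood F test, Benjamini-Hochberg adjustment, threshold 0.05) in R 4.3.3. Alternatives used DESeq2 1.42.0 and limma 3.58.1. The fits were tested on simulated data. CPM values are scaled over all 12 libraries, and list levels use a pseudocount of 0.5 CPM. SE is the log2 fold change over the square root of F. The p-values measure the spread between these 3 pups a group. The coordinates are those of the table.

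The comparison, the members and the 45 gene lists (637 genes; 2 symbols had no match) were chosen with earlier results of these data known. Named genes are Egfr, in each direction the 12 of smallest p and the 10 of largest fold among DESeq2 calls (mean of 1 CPM or more, groups apart, no model-name, sex-linked or mitochondrial genes), up to 4 of smallest p per list and the defining markers. Other members are named after their values were seen, and some genes counted in the lists are not reported here by name. Titles with the same T number were taken as the same pup. The correlation across genes of a pup's rostral and caudal deviations from the group means was 0.355, 0.375 and 0.398 for T4, T8 and T70 and -0.0258, 0.00371 and 0.546 for T3, T6 and T80.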

Additional observations from a re-analysis of the deposited data

Results flagged for a closer look

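Sox5 and Ccnb2 were flagged because their rostral and caudal groups were each separated, in opposite directions. How many other genes had this pattern is not given here. In the rostral piece alone, groups were apart for 8.98% of genes tested as higher and 10.8% as lower. For Sox5, control T4 and cKO T6 are equal at the digits printed. Sox5, a transcription factor of deep layer neurons, was at 133, 142 and 134 CPM in the rostral controls and 101, 133 and 108 CPM in the rostral cKO libraries, and at 95.1 to 97.9 CPM in the caudal controls and 101 to 112 CPM in the caudal cKO libraries. The difference of the log2 fold changes, rostral minus caudal, was -0.384 (SE 0.14, unadjusted p 0.0167). Ccnb2, the mitotic cyclin B2, was at 4.59, 4.41 and 5.24 CPM against 3.78, 3.59 and 3.87 CPM in the rostral piece and at 3.67 to 3.93 CPM against 4.05 to 6.21 CPM in the caudal piece, a difference of -0.693 (SE 0.23, unadjusted p 0.0107). Neither difference passed edgeR's test after adjustment (adjusted p 1 for both).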

How the results depend on the processing

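The number of rostral genes called depended on the tool and on 2 libraries. Against 0 in edgeR's test with all 6 libraries, DESeq2 called 371, limma voom with library quality weights 920, edgeR without a filter on low counts 45, and edgeR with all 12 libraries in 1 fit 101. Leaving out 1 library in turn gave 0 to 1058 calls, with 1058 without cKO T6, 7 without cKO T3 and 0 without each of the others. DESeq2 without T6, an alternative chosen after seeing the data, called 2289. Egfr passed the threshold with log2 fold changes of -2.159 in DESeq2, -1.932 in weighted voom, -2.154 without the filter, -2.155 with all 12 libraries and -1.932 in DESeq2 without T6, and ranged from -2.378 to -1.915 when 1 library was left out. In the caudal piece the 17 calls became 0 to 162 on leaving out 1 library, with 162 without T6, 99 without T3, 5 without T70 and 0 without T4, T8 or T80. The interaction had 14 calls in DESeq2 and 0 to 475 on leaving out 1 pup, with 475 without T6 and 1 without T3; with the pup as a replicate block it had 0. No paired analysis was possible because the control and cKO pups share no replicate number in the rostral comparison. The cause of these differences was not tested.

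Of 1938 alternative values for the named genes, 38 changed direction, all in genes that DESeq2 did not call with all 6 libraries. In weighted voom the log2 fold change was -0.044 for Neurod6, -0.254 for Tbr1, 0.270 for Erbb2, -0.958 for Ermn, 0.357 for Gja1 and 0.356 for Tmem119. In DESeq2 without T6 the same genes were at -0.177, -0.284, 0.271, -0.840, 0.424 and 0.485. With sex as a covariate Erbb2 was at 0.004 and Tmem119 at 0.053, and Ermn was at -0.407 in unweighted voom. Cspg4 was at -0.005 in DESeq2, -0.014 in voom, -0.000 without the filter and -0.001 with all 12 libraries. On leaving out 1 library the values ran from -0.159 to 0.467 for Neurod6, -0.267 to 0.436 for Tbr1, -0.239 to 0.289 for Erbb2, -0.121 to 0.300 for Erbb3, -0.067 to 0.096 for Dusp6, -0.153 to 0.158 for Cspg4, -0.807 to 0.691 for Ermn, -0.540 to 0.440 for Gja1, -0.430 to 0.501 for Tmem119 and -0.287 to 2.060 for Irf7. Of 404 alternative list medians, 384 moved by less than the spread between replicates and 20 by more, and the medians of 17 lists changed sign under some alternative.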

Other observations

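Cwc22, a splicing factor gene whose copy number is known to differ between mouse strains (chromosome 2, 77711503 to 77776719), was at 19.6 CPM in T3 and at 493 and 409 CPM in T6 and T80 in the rostral piece, against 16.5 to 19.5 CPM in the rostral controls. The caudal libraries of the same pups showed the same split, at 17.8 CPM in T3 and 516 and 395 CPM in T6 and T80, against 18.2 to 19.0 CPM in the caudal controls. Cwc22 was called by edgeR without T3 (adjusted p 7.42e-04). Within 5 Mb of Egfr, 45 other genes were tested, 14 had groups that did not overlap, 8 were at an unadjusted p below 0.05 and 1 was called by DESeq2. Over all genes tested, 8.98% had groups apart as higher and 10.8% as lower. The shares at an unadjusted p below 0.05 were 5.51% and 3.98%, and DESeq2 called 0.963% and 0.747%. Whether this region differs from the rest was not tested. Nr4a2, a nuclear receptor of subplate and claustrum neurons, was at 28.3, 6.76 and 10.96 CPM in the rostral controls, 71.9, 29.4 and 101 CPM in the rostral cKO libraries and 98.2 to 134 CPM in the caudal controls. Ccn2, a subplate gene, lay the other way, at 21.5, 17.4 and 25.0 CPM against 13.5, 11.3 and 9.60 CPM (log2 fold change -0.89, SE 0.18, DESeq2 adjusted p 0.00303).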
